A study of Mus musculus with 9 samples.

Results

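The genes described here are the chemokines and chemokine receptors of the Ccl, Cxcl, Ccr and Cxcr series, measured in jejunum lacking epithelial Gata4, in control ileum and in control jejunum of the mouse. A gene was taken if its symbol began with Ccl, Ccr, Cxcl or Cxcr followed by a number and if the array's annotation gave it a probe set that names no other gene. This rule took 46 of 18193 singly named genes, read by 70 of 45037 probe sets. Of these, 46 probe sets read 31 ligand genes and 24 read 15 receptor genes. Another 4 probe sets that name a chemokine together with other genes, among them those of the Ccl19, Ccl21 and Ccl27 families, were left out by the rule.

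Chemokines are small secreted proteins that bind G protein-coupled receptors on leukocytes and guide where those cells go. In the small intestine the epithelium secretes Ccl25, Ccl28, Ccl20, Cxcl14 and Cxcl16, and stromal, myeloid and lymphoid cells secrete most of the others. A well known axis there is Ccl25 and its receptor Ccr9, which bring T cells and plasma cells into the mucosa of the small bowel, mainly its proximal part.

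Mutant jejunum came from 3 Gata4loxP/-VilCre mice, control ileum from 3 Gata4loxP/+VilCre mice and control jejunum from 3 further Gata4loxP/+VilCre mice, all male and 6 to 8 weeks old. Every mouse, controls included, carried a Cre transgene driven by the villin promoter, which is active in intestinal epithelium, and 1 loxP-flanked copy of Gata4. The other copy was null in mutants and wild type in controls, so the control epithelium can also lose a copy. Cells under the epithelium keep the loxP-flanked copy. Their other copy is null in mutants and wild type in controls, so these cells differ in genotype too. Jejunum was taken 10 cm from the pylorus and ileum 1 cm from the cecum, and each of the 9 Affymetrix mouse genome arrays, a design that reads each transcript with a set of short probes, was hybridized with total RNA of a segment. In such bulk RNA fewer cells of a type and less RNA per cell cannot be told apart.

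The deposited intensities were dimmest in the ileum. Their trimmed mean ran between 147 and 180 on mutant jejunum arrays, between 96.8 and 122 on control ileum arrays and between 150 and 172 on control jejunum arrays. Quantile normalization, which gives all arrays the same distribution, was therefore applied to log2(intensity + 16), and every level below is on that scale. A level can be compared between arrays for 1 probe set, but not between probe sets. The mutant jejunum 3 array stood apart from the other 8 on the second principal component (-55.8) and had the lowest array weight (0.384). The Gata4 probe sets differed between mutant and control jejunum by -0.02 and 0.65 (log2; adjusted p = 0.959 and 0.195). No source used here says whether these probes lie in the deleted part of the gene, and they therefore do not check the labels.

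Of the 70 chemokine and receptor probe sets, 48 were bright enough to be tested (at least 3 of 9 arrays above 4.95), and they cover 24 ligand genes and 8 receptor genes. The other 22 probe sets had levels between 4.05 and 5.19 on all arrays. For 14 genes no probe set was tested: the ligands Ccl1, Ccl2, Ccl7, Ccl12, Cxcl2, Cxcl3 and Cxcl5, and the receptors Ccr1l1, Ccr3, Ccr4, Ccr7, Ccr8, Cxcr2 and Cxcr5. Levels near the floor of the scale (4) bear little information on whether the transcript is there. No tested probe set had arrays above 4.95 in 1 group alone. Ccl3, however, was above it on 3 control jejunum arrays, 1 mutant jejunum array and 0 ileum arrays. It therefore met the requirement only through control jejunum.

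**Figure D1:**
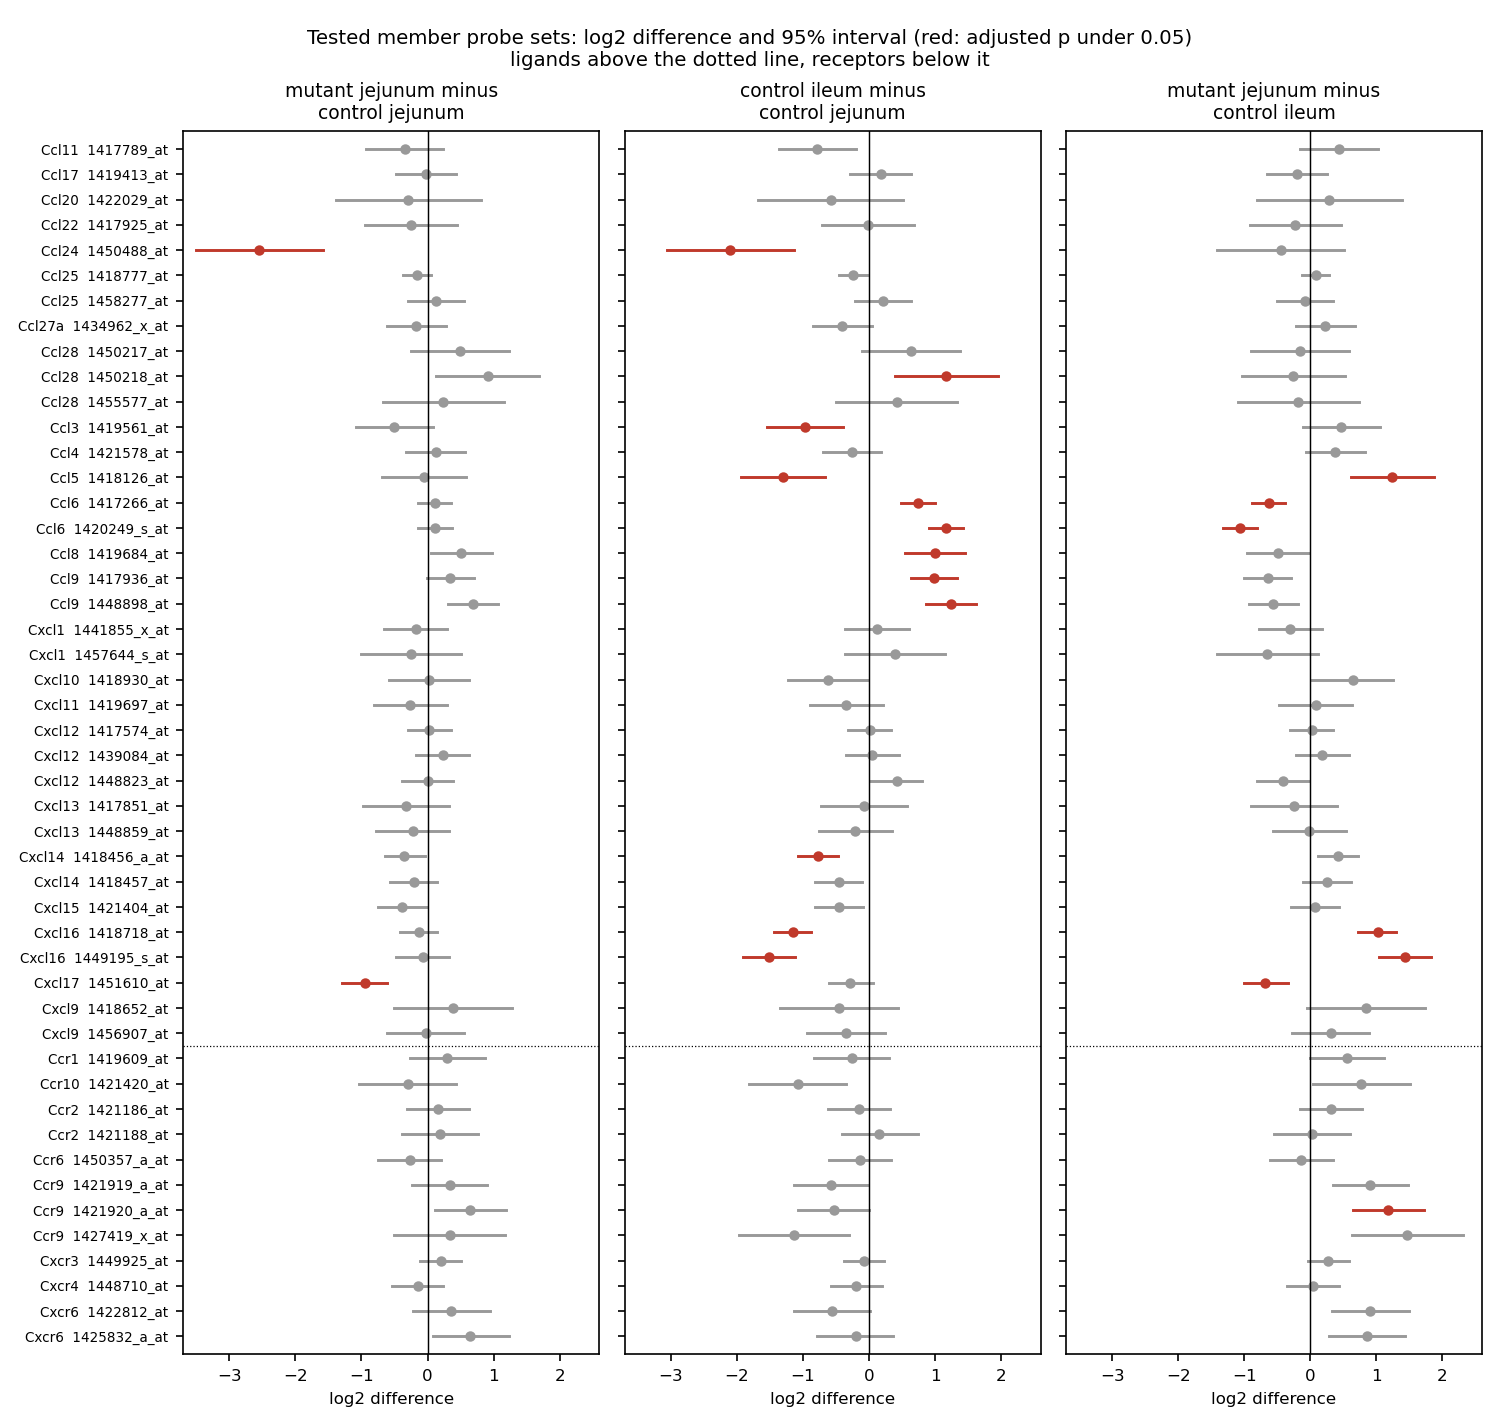
Log2 differences (points) with 95% intervals (lines) of the 48 tested probe sets in mutant jejunum minus control jejunum, control ileum minus control jejunum and mutant jejunum minus control ileum, 3 arrays a group. Red marks an adjusted p under 0.05: 2, 12 and 7 probe sets in the 3 panels, with receptors, below the dotted line, marked once.

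In mutant against control jejunum, the ligands Ccl24 and Cxcl17 fell, no ligand or receptor rose, and no receptor was called. The 2 lower calls made up 4.17% of the 48 tested probe sets, against 1.82% lower and 1.74% higher among all 29307 tested probe sets. The median log2 difference was -0.06 over the 36 ligand probe sets and 0.25 over the 12 receptor probe sets, against 0.00 over all tested.

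Ccl24, also called a member of the eotaxin family, lies on chromosome 5 and attracts eosinophils through Ccr3. Its level was 6.40, 5.67 and 6.36 in mutant jejunum, 6.66, 7.64 and 5.48 in ileum, and 8.90, 8.26 and 8.91 in control jejunum. Every mutant and every ileum array lay below the lowest control jejunum array, while the mutant and ileum arrays overlapped. In deposited intensity, before any scaling, mutant arrays read 78.33, 40.71 and 69.31, ileum arrays 56.6, 157.5 and 23.75, and control jejunum arrays 541.3, 301.9 and 551.7. The fall was 5.86-fold in mutant against control jejunum (log2 -2.55, 95% interval -3.51 to -1.59, adjusted p = 0.00963) and 4.28-fold in ileum against control jejunum (log2 -2.10, -3.06 to -1.14, adjusted p = 0.00829). Without control jejunum 3 the mutant difference was no longer called (adjusted p = 0.0519). Mutant jejunum and ileum differed by -0.45 (-1.41 to 0.51, adjusted p = 0.664), an interval wide enough to hold a change of either sign. The mutant and ileum comparisons share their control jejunum arrays.

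No eosinophil marker was called beside Ccl24. Epx, the eosinophil peroxidase, was dim, above 4.95 on 3 of 9 arrays, with a level of 4.63 ± 0.35 in mutant jejunum, 4.85 ± 0.61 in ileum and 4.50 ± 0.26 in control jejunum (SD, n = 3 each). Siglecf, a surface lectin of eosinophils that tuft cells also express, averaged 6.62 ± 0.98 in mutant jejunum, 6.17 ± 1.24 in ileum and 5.65 ± 0.25 in control jejunum, and its mutant difference of 0.97 was not called (adjusted p = 0.428). Prg2, the eosinophil major basic protein, was too dim to be tested and averaged 4.50 ± 0.17 in mutant jejunum, 4.20 ± 0.14 in ileum and 4.93 ± 0.09 in control jejunum (SD, n = 3 each). Each of these means lay under 4.95. Control jejunum was highest for Prg2, as for Ccl24, but lowest for Epx and Siglecf. The part of eosinophils in the fall of Ccl24 was not tested. The eotaxin receptor gene Ccr3 was not tested, with levels between 4.20 and 4.88 on mutant jejunum arrays, between 4.07 and 4.48 on ileum arrays and between 4.42 and 4.71 on control jejunum arrays. Ccl11, the other eotaxin on the array, read 6.80, 6.91 and 7.67 in mutant jejunum, 7.25, 6.40 and 6.44 in ileum, and 7.64, 7.34 and 7.44 in control jejunum. It was not called in mutant against control jejunum (-0.34, -0.93 to 0.24, adjusted p = 0.569). In ileum against control jejunum Ccl11 was not called with all arrays (-0.78, adjusted p = 0.0714) but became a call when ileum 1 (-1.06, adjusted p = 0.02) or mutant jejunum 3 (adjusted p = 0.0313) was left out.

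Cxcl17, on chromosome 7, is a mucosal chemokine made by epithelia. Its level was 4.49, 4.61 and 4.50 in mutant jejunum, 5.20, 5.17 and 5.26 in ileum, and 5.38, 5.55 and 5.52 in control jejunum. All 3 mutant arrays lay under the filter level of 4.95, and the 3 groups did not overlap. The signal was dim throughout: deposited intensities were 7.245, 9.805 and 6.822 in mutant jejunum, 13.32, 16.43 and 18.29 in ileum, and 29.45, 36.02 and 35.05 in control jejunum. The log2 difference between mutant and control jejunum was -0.95 (-1.29 to -0.62, adjusted p = 0.0062). Because the probe set was dim, the size depended on the pseudocount: the same difference was -1.88 with 1 added to the intensity and -0.39 with 64 added. Ileum and control jejunum differed by -0.28 (-0.61 to 0.06, adjusted p = 0.244). Mutant jejunum was below ileum by -0.68 (adjusted p = 0.0424), and leaving out any 1 of the 9 arrays ended that call (adjusted p between 0.0576 and 0.126).

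Ccl9 came close to the threshold in the mutant. Its probe set 1448898_at read 6.71, 7.17 and 7.32 in mutant jejunum, 7.74, 7.52 and 7.61 in ileum, and 6.35, 6.26 and 6.52 in control jejunum. No groups overlapped, and the mutant arrays lay between those of the other groups. The mutant difference of 0.69 (0.31 to 1.06) was not called with all arrays (adjusted p = 0.0527) but became a call when mutant jejunum 1 was left out (adjusted p = 0.0166). Its other probe set, 1417936_at, gave a mutant difference of 0.34 (-0.01 to 0.70, adjusted p = 0.308).

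Control ileum against control jejunum moved more of these genes. Ccl6, Ccl9, Ccl8 and Ccl28 were higher in ileum, and Cxcl16, Cxcl14, Ccl5, Ccl3 and Ccl24 were lower. That is 6 probe sets higher and 6 lower, 12.5% of the 48 tested in each direction, against 8.36% higher and 7.86% lower among all 29307. All 12 calls were ligands, 16.7% of the 36 ligand probe sets in each direction, and none of the 12 receptor probe sets was called. Receptor calls depended on the scaling and on other settings. Centring arrays on medians called Ccr10 (-1.01, adjusted p = 0.0338) and the Ccr9 probe set 1427419_x_at (-1.18, adjusted p = 0.0415) lower in ileum. Without scaling, 7 receptor probe sets were called lower. With quantile normalization kept, Ccr10 was called with 64 added to the intensity (-0.54, adjusted p = 0.0337). Ccr10 also passed under a stricter 60th-percentile filter (adjusted p = 0.0472) and with array weights (adjusted p = 0.0307). The same Ccr9 probe set passed with array weights (adjusted p = 0.0261) and when mutant arrays were kept out of the model (adjusted p = 0.0225). In the main fit both narrowly missed the threshold (adjusted p = 0.0506 and 0.0657). By group, the inflammatory CC ligands had 3 genes higher and 3 lower of 11 tested, and the ligands known from epithelium had 0 higher and 2 lower of 7 when the brightest probe set stood for each gene. The median difference was -0.22 over ligand and -0.23 over receptor probe sets, against 0.01 over all tested.

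**Figure D2:**
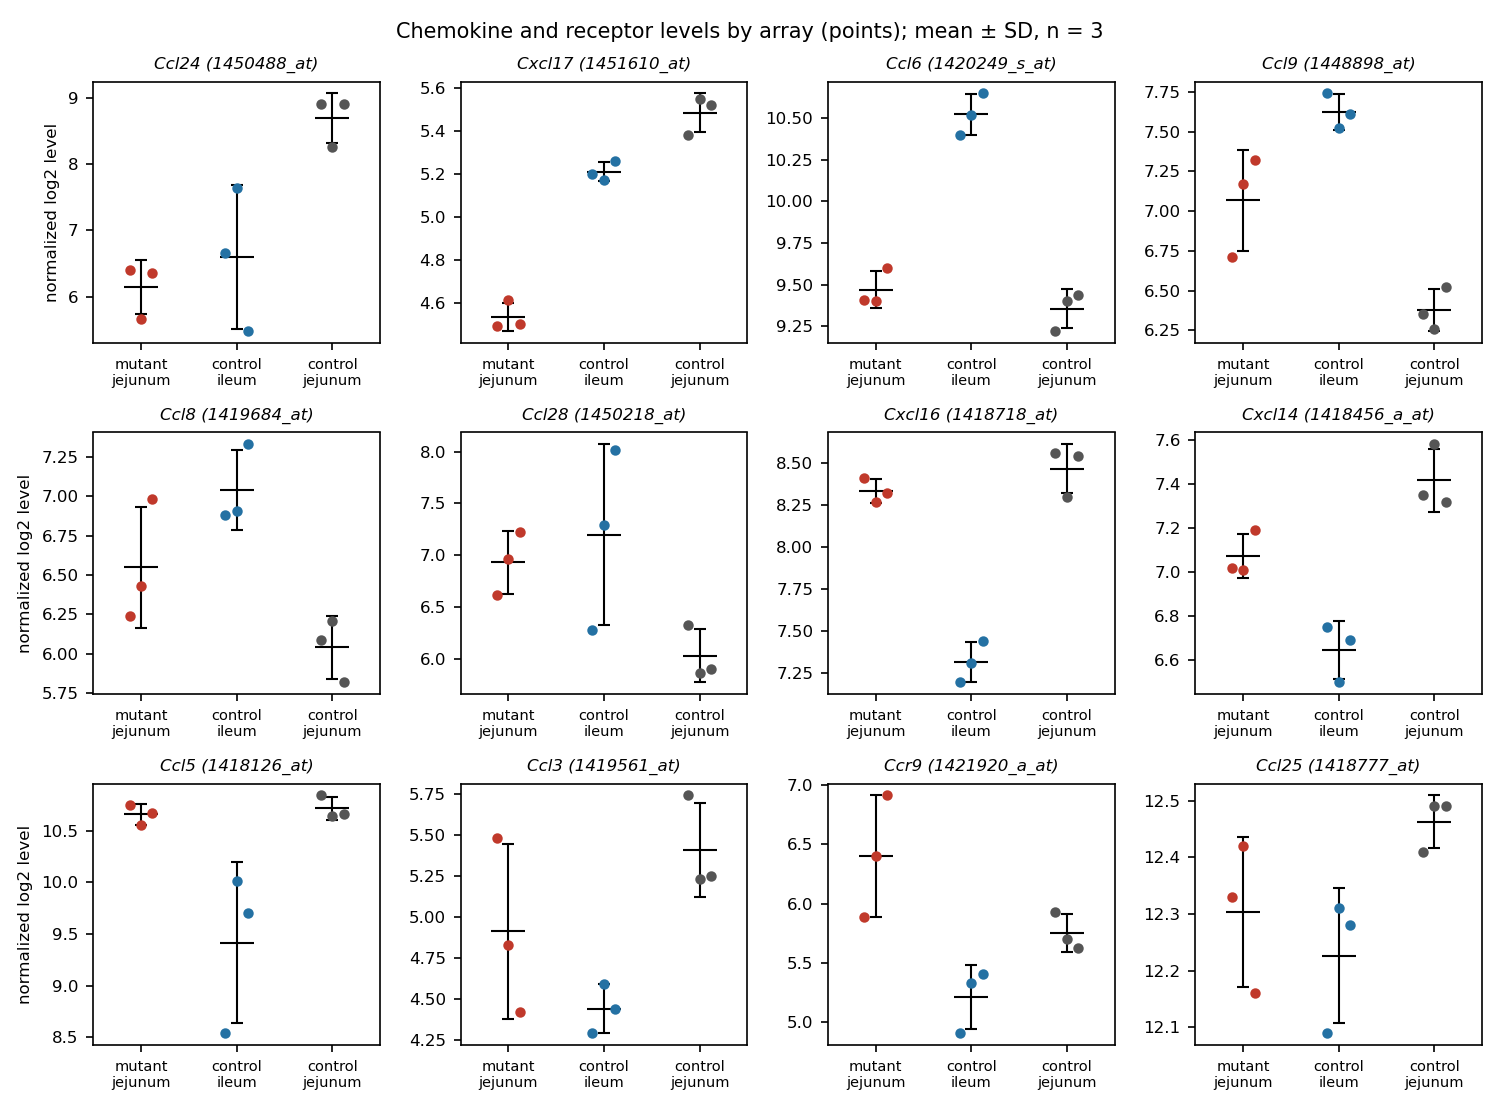
Normalized log2 levels of 12 probe sets on each array (points; mean ± SD, n = 3), with mutant jejunum left, control ileum in the middle and control jejunum right; each panel has its own scale, which does not start at 0. Ccl24 was low in mutant jejunum and ileum, Cxcl17 in mutant jejunum, Ccl6 was high in ileum alone among the 3 groups, and Cxcl16 and Ccl5 were low in ileum.

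Ccl6 and Ccl9 are CC chemokines of rodents that attract monocytes, macrophages and other myeloid cells through Ccr1, and they rose together in ileum. The Ccl6 probe set 1420249_s_at read 9.41, 9.40 and 9.60 in mutant jejunum, 10.40, 10.52 and 10.65 in ileum, and 9.22, 9.40 and 9.44 in control jejunum. All ileum arrays lay above all jejunum arrays of both genotypes, which overlapped. It was 2.25-fold higher in ileum than in control jejunum (log2 1.17, 0.91 to 1.43, adjusted p = 9.38e-05). The mutant stayed near control jejunum, with a difference of 0.11 (-0.15 to 0.37, adjusted p = 0.688), and below ileum by -1.06 (-1.32 to -0.80, adjusted p = 0.00141). The second Ccl6 probe set, 1417266_at, read 10.69, 10.77 and 10.77 in mutant jejunum, 11.20, 11.38 and 11.54 in ileum, and 10.47, 10.70 and 10.72 in control jejunum. It gave 0.74 for ileum against control jejunum (adjusted p = 0.00144) and -0.63 for mutant jejunum against ileum (adjusted p = 0.018). The difference of this probe set between mutant jejunum and ileum shrank with the scaling, to -0.33 under median centring (adjusted p = 0.232) and to -0.02 without scaling (adjusted p = 0.945). Its call was also lost without mutant jejunum 1 or 2 or ileum 2 or 3 (adjusted p between 0.0505 and 0.077).

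Ccl9 rose in ileum on both of its probe sets. The log2 difference between ileum and control jejunum was 1.25 (0.87 to 1.62, adjusted p = 0.000723) on 1448898_at and 0.99 (0.64 to 1.34, adjusted p = 0.002) on 1417936_at. The second of these read 7.66, 8.08 and 8.21 in mutant jejunum, 8.76, 8.55 and 8.58 in ileum, and 7.56, 7.55 and 7.80 in control jejunum. Mutant jejunum lay below ileum by -0.56 and -0.64 on the 2 probe sets, neither of them called (adjusted p = 0.119 and 0.0611). Leaving out mutant jejunum 3 made the second a call (adjusted p = 0.0342). Their receptor Ccr1 read 6.51, 6.21 and 7.32 in mutant jejunum, 5.88, 6.08 and 6.41 in ileum, and 6.54, 6.19 and 6.41 in control jejunum, and its ileum difference from control jejunum missed the threshold (-0.26, -0.83 to 0.31, adjusted p = 0.542).

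The promoters of these neighbouring genes are shown because both transcripts rose in ileum and because Ccl6 did not differ detectably in the mutant. They are the 250 bases before the annotated start in RefSeq (GRCm38.p6, minus strand), at chr11:83593088-83593337 for Ccl6 and chr11:83578637-83578886 for Ccl9. Capitals mark the longest run of letters that both share, 13 bases beginning at position -55 in Ccl6 and -14 in Ccl9 from the start.
Ccl6: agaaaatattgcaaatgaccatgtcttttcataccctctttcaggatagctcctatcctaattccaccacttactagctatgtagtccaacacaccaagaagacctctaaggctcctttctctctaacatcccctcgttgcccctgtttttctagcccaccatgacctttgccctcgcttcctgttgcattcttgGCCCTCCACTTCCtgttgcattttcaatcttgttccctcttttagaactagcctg
Ccl9: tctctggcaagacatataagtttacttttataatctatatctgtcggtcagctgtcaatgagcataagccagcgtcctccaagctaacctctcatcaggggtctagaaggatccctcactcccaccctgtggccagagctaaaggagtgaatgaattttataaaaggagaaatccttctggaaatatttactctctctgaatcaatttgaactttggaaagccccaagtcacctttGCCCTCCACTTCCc
That run stands in 5 of 32851 RefSeq promoters of this length (0.0152%), those of Ccl6 and Ccl9 among them. It was picked as the longest run that both share, so its low share is no result about these genes. The GATA motif was searched on both strands as an A or a T before GATAA or GATAG, and neither promoter holds it. Promoters were given for 33 of the 46 genes, 37 promoters in all, and 13 of the 37 (35.1%) hold such a match, against 8718 of 32851 (26.5%) of all promoters. Ccl8, called in ileum, and Ccr9, called in mutant jejunum against ileum, each hold 1 match, while the called genes Ccl3, Ccl28 and Cxcl14 hold none like Ccl6 and Ccl9, and promoters of Ccl24, Cxcl17, Cxcl16 and Ccl5 were not used here. The matches are shown in capitals in the plus-strand promoters of Ccl8 and Ccr9 at chr11:82114935-82115184 and chr9:123766961-123767210, beginning at -55 in Ccl8 and -114 in Ccr9.
Ccl8: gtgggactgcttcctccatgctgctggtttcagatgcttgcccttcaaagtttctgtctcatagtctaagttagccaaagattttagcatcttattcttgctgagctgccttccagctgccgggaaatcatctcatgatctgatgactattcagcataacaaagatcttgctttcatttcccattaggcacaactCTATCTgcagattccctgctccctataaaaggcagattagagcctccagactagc
Ccr9: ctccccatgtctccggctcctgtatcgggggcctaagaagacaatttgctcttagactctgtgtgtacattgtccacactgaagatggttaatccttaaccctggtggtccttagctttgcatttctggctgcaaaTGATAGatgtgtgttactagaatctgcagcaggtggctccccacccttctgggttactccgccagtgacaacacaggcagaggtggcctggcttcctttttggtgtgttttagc
These letters describe the sequence and say nothing of whether a factor binds there.

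Along chromosome 11 the RefSeq order of protein-coding genes is Ccl5, Ccl9, Ccl6, Ccl3 and Ccl4, and the calls in ileum changed direction within it. Ccl9 and Ccl6 were higher in ileum, their neighbours Ccl5 and Ccl3 on either side were lower, and Ccl4 was not called (-0.25, -0.70 to 0.19, adjusted p = 0.434). Ccl3 met the filter only through control jejunum, the group in which it was highest, so its call is not independent of the filter. That call was also lost when any single ileum or control jejunum array was left out. The change of direction on the Ccl3 side rests on that call. In mutant jejunum none of the 5 genes was called against control jejunum.

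**Figure D3:**
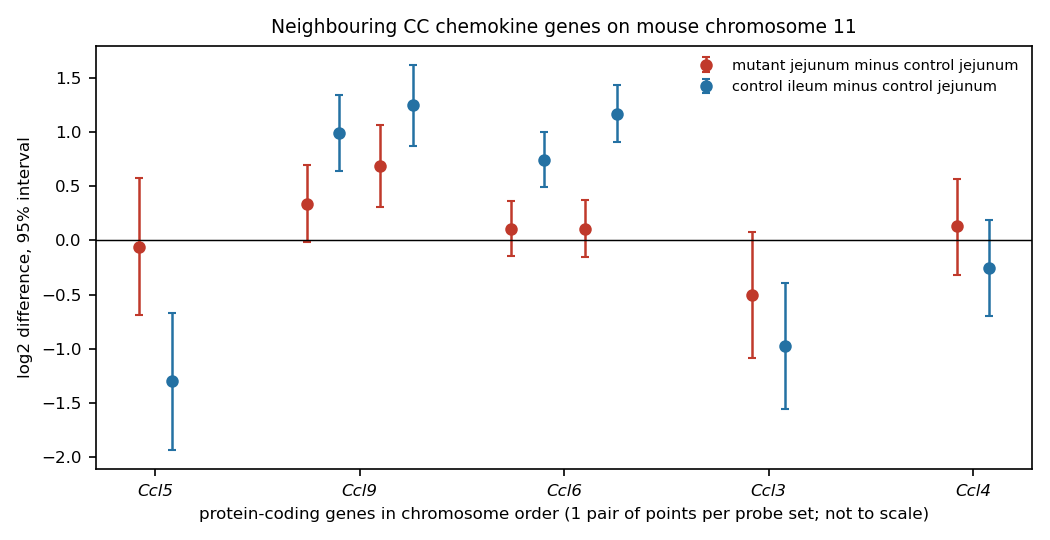
Log2 differences with 95% intervals for the tested probe sets of 5 neighbouring CC ligand genes on chromosome 11, in chromosome order and not to scale, for mutant jejunum minus control jejunum (red) and control ileum minus control jejunum (blue), 3 arrays a group. In ileum Ccl9 and Ccl6 lie above 0 and Ccl5 and Ccl3 below it. Ccl3 met the filter only through control jejunum, where it was highest. The mutant intervals cross 0 except that of the Ccl9 probe set 1448898_at, which was not called.

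Ccl8, a CC chemokine made largely by macrophages, was also higher in ileum. It read 6.24, 6.43 and 6.98 in mutant jejunum, 6.88, 6.91 and 7.33 in ileum, and 6.09, 6.21 and 5.82 in control jejunum. The ileum and control jejunum arrays did not overlap, and the mutant arrays lay just above control jejunum, with mutant jejunum 3 inside the ileum range. Ileum was 2.00-fold above control jejunum (log2 1.00, 0.54 to 1.46, adjusted p = 0.00873), and the mutant difference of 0.51 (0.05 to 0.97) was not called (adjusted p = 0.249).

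Ccl28, an epithelial chemokine that attracts IgA plasma cells through Ccr10, was called on 1 of its 3 probe sets. This probe set, 1450218_at, read 6.61, 6.96 and 7.22 in mutant jejunum, 6.28, 7.29 and 8.02 in ileum, and 6.32, 5.86 and 5.90 in control jejunum. Ileum 1 lay within the control jejunum range while the other ileum arrays lay above it. The ileum difference of 1.17 (0.39 to 1.95, adjusted p = 0.0455) was lost under 13 of 20 alternative settings, among them leaving out mutant jejunum 1 or 2, ileum 2 or 3, or any control jejunum array (adjusted p between 0.0518 and 0.132 without these arrays). Against control jejunum the mutant difference was 0.91 (0.13 to 1.69, adjusted p = 0.22). The brightest Ccl28 probe set, 1455577_at, read 8.45, 8.82 and 8.90 in mutant jejunum, 7.66, 9.27 and 9.77 in ileum, and 8.26, 8.78 and 8.40 in control jejunum, with no call (ileum minus control jejunum 0.42, adjusted p = 0.537). Without ileum 1 it was called (1.04, adjusted p = 0.0122), as was 1450217_at (1.10, adjusted p = 0.0155). Ccr10 read 6.01, 6.19 and 5.90 in mutant jejunum, 4.29, 5.51 and 5.98 in ileum, and 6.46, 6.28 and 6.26 in control jejunum, which was above every array of the other groups. Its ileum difference of -1.07 (-1.81 to -0.34) missed the threshold (adjusted p = 0.0506) and was called without ileum 3 (-1.44, adjusted p = 0.0135).

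Cxcl16, a chemokine that is made in a membrane-bound form and binds Cxcr6 on T cells and innate lymphoid cells, lies on chromosome 11 and was lower in ileum than in jejunum of either genotype. The probe set 1418718_at read 8.41, 8.27 and 8.32 in mutant jejunum, 7.20, 7.31 and 7.44 in ileum, and 8.56, 8.30 and 8.54 in control jejunum. On 1449195_s_at the levels were 7.89, 7.79 and 7.80 in mutant jejunum, 6.16, 6.19 and 6.81 in ileum, and 8.04, 7.76 and 7.90 in control jejunum. Every ileum array lay below every jejunum array on both, and the mutant and control jejunum arrays overlapped. Ileum was 2.22-fold below control jejunum on the first (log2 -1.15, adjusted p = 0.000187) and 2.85-fold on the second (log2 -1.51, adjusted p = 0.000294). The mutant was above ileum by 1.02 (adjusted p = 0.0031) and 1.44 (adjusted p = 0.00296), and differed from control jejunum by -0.13 (-0.42 to 0.15, adjusted p = 0.658) and -0.07 (-0.47 to 0.32, adjusted p = 0.887). These calls against ileum held under all 20 alternative settings.

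Cxcl14, which attracts monocytes and dendritic cells, fell in ileum on 1 of 2 probe sets. On 1418456_a_at it read 7.02, 7.01 and 7.19 in mutant jejunum, 6.75, 6.50 and 6.69 in ileum, and 7.35, 7.58 and 7.32 in control jejunum. The 3 groups did not overlap, with mutant jejunum in the middle. Ileum differed from control jejunum by -0.77 (-1.08 to -0.47, adjusted p = 0.00374) and the mutant by -0.35 (-0.65 to -0.04, adjusted p = 0.231). The other probe set, 1418457_at, gave -0.46 for ileum (adjusted p = 0.0773).

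Ccl5 and Ccl3, ligands that activated T cells, natural killer cells and macrophages make, were lower in ileum too. Ccl5 read 10.75, 10.55 and 10.67 in mutant jejunum, 8.54, 10.01 and 9.70 in ileum, and 10.84, 10.64 and 10.66 in control jejunum. The jejunum arrays of both genotypes lay between 10.55 and 10.84, and the ileum arrays lay below them and were spread more widely, ileum 1 being the lowest. Ileum was 2.46-fold below control jejunum (log2 -1.30, -1.93 to -0.67, adjusted p = 0.0115), and mutant and control jejunum differed by -0.06 (-0.69 to 0.58, adjusted p = 0.956). Mutant jejunum was above ileum by 1.24 (0.61 to 1.88, adjusted p = 0.0472), a call lost under 12 of 20 alternative settings, including without ileum 3 (adjusted p = 0.0648) and without any array of mutant or control jejunum (0.0693 to 0.143). Ccl3 read 5.48, 4.83 and 4.42 in mutant jejunum, 4.29, 4.59 and 4.44 in ileum, and 5.74, 5.23 and 5.25 in control jejunum. All ileum arrays lay under the filter level, with deposited intensities of 2.167, 6.538 and 4.824, so the size of the difference is set by the constant added: ileum minus control jejunum was -0.97 with 16 added (adjusted p = 0.0298), -2.07 with 1 and -0.38 with 64. Ccl3 met the filter only through control jejunum, the group in which it was highest, so its call is not independent of the filter. The call was lost without any 1 ileum or control jejunum array (adjusted p between 0.0565 and 0.0966), and the mutant difference was -0.50 (adjusted p = 0.373).

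In mutant jejunum against ileum, Cxcl16, Ccl5 and Ccr9 were higher and Ccl6 and Cxcl17 were lower. The 4 higher probe sets made up 8.33% of the 48 tested and the 3 lower ones 6.25%, against 1.39% higher and 1.27% lower among all 29307. These arrays differ in segment as well as genotype, which cannot be told apart in this comparison. The median difference was 0.66 over the 12 receptor probe sets, 11 of them positive, and -0.01 over all tested.

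Ccr9, the Ccl25 receptor of gut-homing T cells and plasma cells, was read by 5 probe sets, of which 3 were tested. On 1421920_a_at the levels were 5.89, 6.40 and 6.91 in mutant jejunum, 4.91, 5.33 and 5.41 in ileum, and 5.93, 5.70 and 5.63 in control jejunum. Each mutant array lay above each ileum array, and mutant and control jejunum overlapped. The mutant was 2.27-fold above ileum (log2 1.18, 0.65 to 1.72, adjusted p = 0.0302), a call lost without mutant jejunum 2 (adjusted p = 0.0811) or any 1 ileum array (0.0534 to 0.0952). It differed from control jejunum by 0.65 (0.11 to 1.19, adjusted p = 0.204). The brightest probe set, 1427419_x_at, read 7.15, 7.45 and 8.71 in mutant jejunum, 6.02, 6.12 and 6.76 in ileum, and 7.42, 7.92 and 6.96 in control jejunum, and gave 1.47 for mutant jejunum against ileum (adjusted p = 0.0701). For ileum against control jejunum it gave -1.13 (-1.97 to -0.30, adjusted p = 0.0657), which became a call when mutant jejunum 3 was left out (adjusted p = 0.0139).

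Ccl25 itself was bright everywhere. It read 12.33, 12.42 and 12.16 in mutant jejunum, 12.09, 12.31 and 12.28 in ileum, and 12.41, 12.49 and 12.49 in control jejunum on 1418777_at. The difference from control jejunum was -0.16 (-0.37 to 0.05, adjusted p = 0.451) in the mutant and -0.24 (-0.45 to -0.03, adjusted p = 0.118) in ileum. Both intervals, which hold for this probe set under quantile normalization, exclude a 2-fold fall. Without scaling it was called lower in ileum than in control jejunum (-0.72, adjusted p = 0.00851) and higher in mutant jejunum than in ileum (0.64, adjusted p = 0.0214). The dimmer Ccl25 probe set 1458277_at differed from control jejunum by 0.13 in the mutant (adjusted p = 0.802) and 0.21 in ileum (adjusted p = 0.501). In the main fit neither Ccl25 nor Ccr9 was called between mutant and control jejunum or between ileum and control jejunum.

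**Figure D4:**
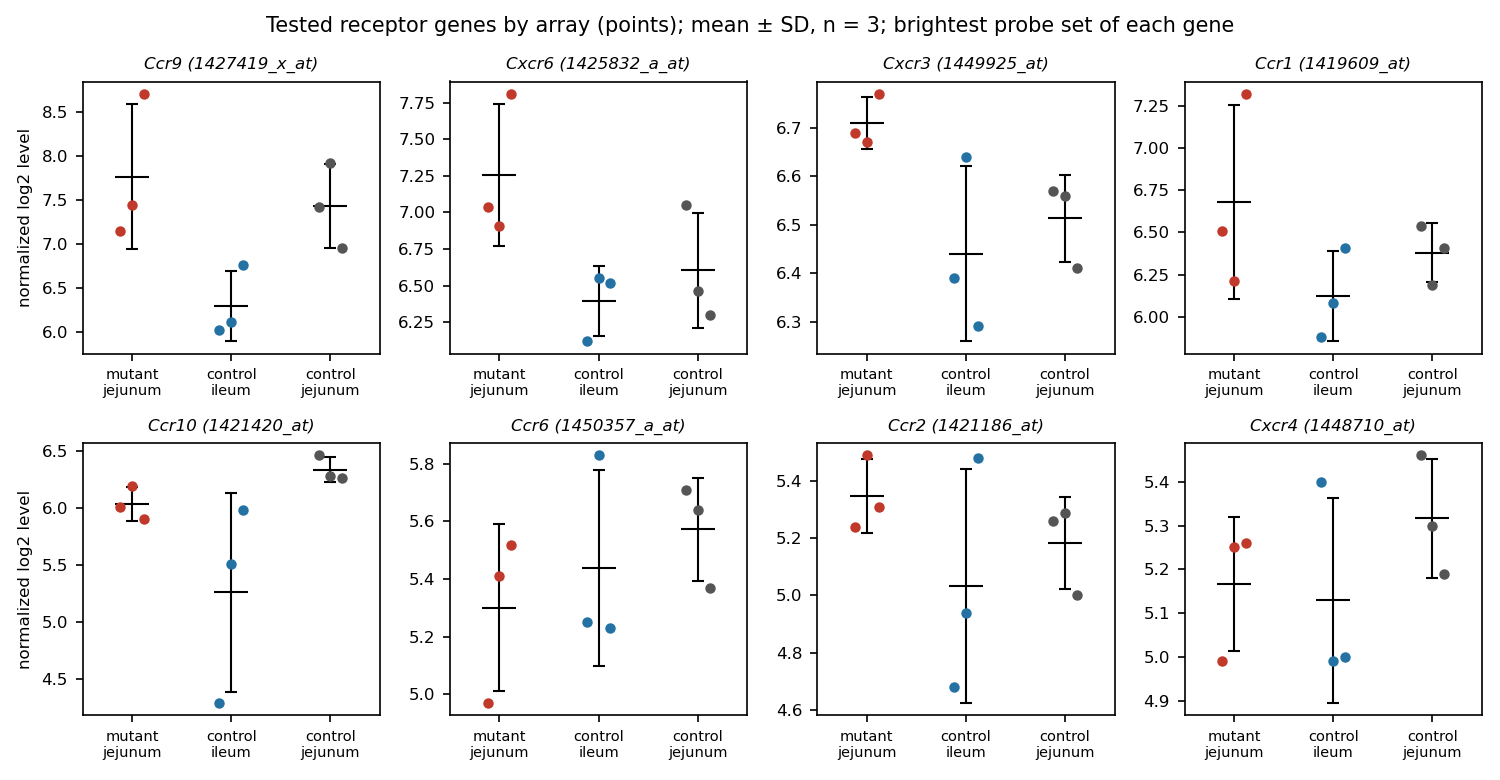
Normalized log2 levels of the brightest probe set of the 8 tested receptor genes on each array (points; mean ± SD, n = 3), with mutant jejunum left, control ileum in the middle and control jejunum right; each panel has its own scale, which does not start at 0. None of these 8 probe sets was called; the highest Ccr9, Cxcr6 and Ccr1 point is mutant jejunum 3.

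Cxcr6, the Cxcl16 receptor, read 7.04, 6.91 and 7.81 in mutant jejunum, 6.12, 6.55 and 6.52 in ileum, and 7.05, 6.46 and 6.30 in control jejunum on 1425832_a_at. All mutant arrays lay above all ileum arrays, but the difference of 0.86 (0.28 to 1.43) was not called (adjusted p = 0.12). Ileum and control jejunum differed by -0.20 (-0.78 to 0.37, adjusted p = 0.642). Ccr9 and Cxcr6 lie with Ccr1, Ccr1l1, Ccr3 and Ccr2 in a receptor cluster on chromosome 9.

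The interferon-induced ligands of Cxcr3 showed no call. Cxcl9 read 7.13, 7.42 and 8.58 in mutant jejunum, 6.05, 7.04 and 7.51 in ileum, and 7.66, 6.96 and 7.34 in control jejunum, and the groups overlapped. Cxcl10 read 6.58, 7.16 and 6.69 in mutant jejunum, 5.55, 6.53 and 6.43 in ileum, and 7.20, 6.54 and 6.62 in control jejunum. Ileum lay below both jejunum groups for Cxcl10, and its difference from control jejunum was -0.62 (-1.23 to -0.01, adjusted p = 0.153). Cxcl11, which the RefSeq table lists as a pseudogene, read 6.59, 6.08 and 7.24 in mutant jejunum, 6.56, 6.49 and 6.62 in ileum, and 7.13, 6.64 and 6.92 in control jejunum, where it was just above all ileum arrays. Cxcr3, a receptor of activated T cells, read 6.69, 6.67 and 6.77 in mutant jejunum, 6.39, 6.64 and 6.29 in ileum, and 6.57, 6.56 and 6.41 in control jejunum. Every mutant array was above every control jejunum array, by a mean of 0.20 that was not called (-0.11 to 0.50, adjusted p = 0.523).

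The tested chemokines that organize lymphoid tissue were not called either. Ccl19 and Ccl21 had no probe set under the rule, and their receptor Ccr7 was not tested. Cxcl13, the B cell chemokine of follicles, read 5.89, 6.03 and 6.16 in mutant jejunum, 5.55, 6.30 and 6.26 in ileum, and 6.77, 6.02 and 5.95 in control jejunum. Its receptor Cxcr5 was not tested. Ccl20, the ligand of Ccr6 made by follicle-associated epithelium, read 5.49, 4.47 and 6.62 in mutant jejunum, 4.50, 5.66 and 5.55 in ileum, and 6.35, 5.92 and 5.18 in control jejunum, and the spread within groups left a wide interval (mutant minus control jejunum -0.29, -1.39 to 0.81). Ccr6 read 4.97, 5.41 and 5.52 in mutant jejunum, 5.25, 5.83 and 5.23 in ileum, and 5.71, 5.64 and 5.37 in control jejunum. The stromal ligand Cxcl12 read 7.31, 7.15 and 7.81 in mutant jejunum, 7.68, 7.81 and 8.04 in ileum, and 7.38, 7.36 and 7.53 in control jejunum on 1448823_at. Its ileum arrays lay above its control jejunum arrays by 0.42 (0.03 to 0.81, adjusted p = 0.136), a difference called only without mutant jejunum 3 (adjusted p = 0.0489).

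Low readings limited the rest. Cxcr4, the Cxcl12 receptor, read 4.99, 5.25 and 5.26 in mutant jejunum, 5.40, 4.99 and 5.0 in ileum, and 5.46, 5.30 and 5.19 in control jejunum. Ccr2, the monocyte receptor, read 5.24, 5.49 and 5.31 in mutant jejunum, 4.68, 4.94 and 5.48 in ileum, and 5.26, 5.29 and 5.0 in control jejunum, and its ligand Ccl2 was not tested. Cxcl1, a neutrophil chemokine, read 5.61, 5.64 and 5.94 in mutant jejunum, 6.09, 5.66 and 6.34 in ileum, and 6.13, 5.53 and 6.07 in control jejunum. Groups overlapped for all of these, and none was called. The same holds for Ccl17, Ccl22, Ccl27a and Cxcl15, whose differences lay between -0.46 and 0.23 in the 3 comparisons, with 2 exceptions on overlap: ileum lay below control jejunum on all arrays for Ccl27a and Cxcl15, and mutant jejunum did so for Cxcl15.

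Other genes of the chemokine system are given by lists, against 1.74% of all tested probe sets higher and 1.82% lower in mutant against control jejunum. In these lists and the marker lists below, the brightest tested probe set stands for each gene. Shares over all tested, in contrast, count every tested probe set. Of 12 tested other chemokines and atypical receptors, among them Cx3cl1, Xcl1 and Ackr1 to Ackr4, none was called in any comparison. In the receptor signalling list, 1 of 21 tested genes rose in mutant against control jejunum: Gnai3, a G protein alpha subunit of the inhibitory class (0.40, adjusted p = 0.0359). In ileum against control jejunum 8.36% of all tested probe sets were higher and 7.86% lower. There Gnai3 (0.54) and the G protein regulator Rgs2 (0.63) rose. Ptk2b (-0.73) and the leukocyte genes Rac2 (-0.58) and Was (-0.88) fell, with 16 of 21 not called. Rac2 was the 1 gene of this list called in mutant jejunum against ileum, where it was higher (0.81, adjusted p = 0.0411).

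Among 14 tested homing and adhesion genes none was called in mutant against control jejunum. Itgae, the integrin chain that holds intraepithelial lymphocytes to E-cadherin, read 8.91, 9.23 and 9.65 in mutant jejunum, 7.52, 8.19 and 7.41 in ileum, and 9.21, 9.22 and 8.90 in control jejunum. It was lower in ileum than in control jejunum (-1.40, adjusted p = 0.00214) and higher in the mutant than in ileum (1.56, adjusted p = 0.00752), as was Vcam1, a vascular adhesion molecule (-1.12, adjusted p = 0.00733, and 1.07, adjusted p = 0.0343). Cdh1, which encodes E-cadherin, was higher in ileum (0.38, adjusted p = 0.0154).

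Of 12 tested genes of lymphoid tissue organization, Relb, an NF-kappaB subunit, was higher in mutant than in control jejunum (0.72, adjusted p = 0.041). In ileum against control jejunum Il7, Relb and Tnfrsf11a were higher (1.13, 0.89 and 0.69), and Id2, Ltbr and Tnfrsf13c were lower (-0.76, -0.58 and -0.62). Of 14 tested genes of the interferon gamma response, Ido1, a tryptophan-degrading enzyme, was higher in mutant jejunum than in control jejunum (0.83, adjusted p = 0.0172) and than in ileum (0.77, adjusted p = 0.0306). Ifngr1 was higher (0.45) and Gbp3 lower (-0.90) in ileum against control jejunum.

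Markers of other cell types moved with several of these results. The mean level of 15 T cell markers ran between 7.53 and 7.89 on mutant jejunum arrays, between 6.13 and 7.12 on ileum arrays and between 7.12 and 7.65 on control jejunum arrays, and ileum 1 was the lowest for this list as for Ccl5. In ileum against control jejunum 4 of 15 were lower (Cd3d, Cd3g, Cd7 and Gzma) and none was higher, where 7.86% of all tested probe sets were lower and 8.36% higher, shares that also apply to the lists that follow. In mutant jejunum against ileum 5 of 15 were higher (Cd3g, Cd7, Cd8a, Gzma and Lat), against 1.39% of all tested. None was called in mutant against control jejunum, and Cd2 and Cd4 were not tested. The part of T cell content in the differences of Ccl5, Ccl3, Cxcl16, Ccr9 and Cxcr6 was not tested.

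**Figure D5:**
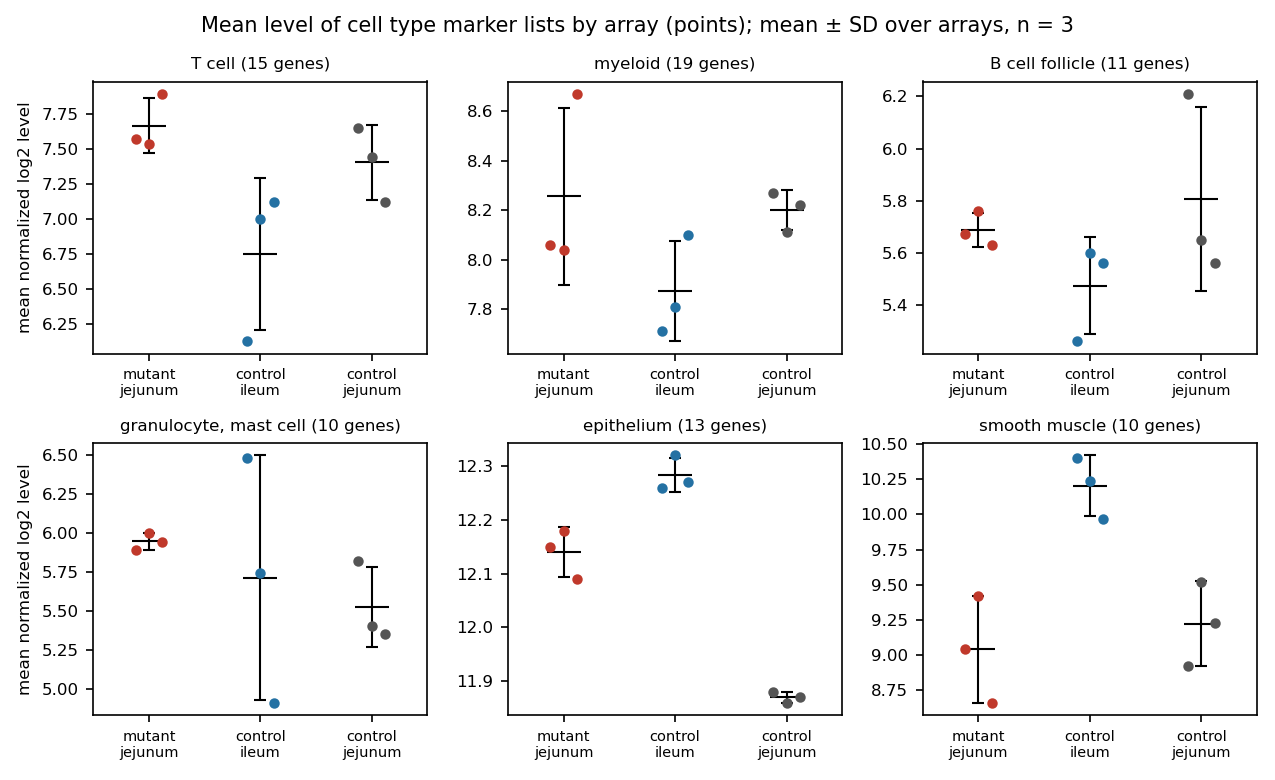
Mean normalized log2 level of 6 cell type marker lists on each array (points; mean ± SD over arrays, n = 3), with mutant jejunum left, control ileum in the middle and control jejunum right; each panel has its own scale, which does not start at 0. T cell and myeloid lists are lower, and smooth muscle and epithelial lists higher, on ileum than on control jejunum arrays in the mean.

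The mean of 19 myeloid markers ran between 8.04 and 8.67 on mutant jejunum arrays, between 7.71 and 8.10 on ileum arrays and between 8.11 and 8.27 on control jejunum arrays, and in ileum against control jejunum 4 were lower (Aif1, Csf1r, Itgax and Tyrobp) and none higher. Ccl6, Ccl9 and Ccl8, which myeloid cells make, were higher in ileum, where 4 genes of this list were lower. In the same comparison 7 of 13 epithelial and 8 of 10 smooth muscle markers were higher, as these ligands were. Which cells made these ligands was not tested. In mutant against control jejunum no myeloid marker was called, and mutant jejunum 3 was the highest of all 9 arrays for the T cell and myeloid lists. Smooth muscle markers ran between 8.66 and 9.42 on mutant jejunum arrays, between 9.97 and 10.40 on ileum arrays and between 8.92 and 9.52 on control jejunum arrays, and 8 of 10 were higher in ileum than in control jejunum. Epithelial markers ran between 12.09 and 12.18 on mutant jejunum arrays, between 12.26 and 12.32 on ileum arrays and between 11.86 and 11.88 on control jejunum arrays, with 7 of 13 higher in ileum and 3 (Krt18, Krt19 and Tspan8) higher in the mutant than in control jejunum, and Tspan8 lower in the mutant than in ileum. In mutant jejunum against ileum 7 of 10 smooth muscle markers were lower and the myeloid marker Itgax was higher. Among all tested probe sets 1.27% were lower and 1.39% higher in that comparison, and 1.74% were higher in mutant against control jejunum.

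B cell follicle markers ran between 5.63 and 5.76 on mutant jejunum arrays, between 5.26 and 5.60 on ileum arrays and between 5.56 and 6.21 on control jejunum arrays, and 3 of 11 were lower in ileum (Bank1, Cd22 and Cd79a), with Fcer2a and Cr2 not tested. Plasma cell markers were between 9.01 and 9.27 on mutant jejunum arrays, between 8.37 and 8.94 on ileum arrays and between 8.84 and 9.17 on control jejunum arrays, with Jchain and Tnfrsf17 lower and Sdc1, which epithelium also makes, higher in ileum against control jejunum (0.86, adjusted p = 0.00102). Sdc1 was also higher in mutant against control jejunum (0.99, adjusted p = 0.00133). Granulocyte and mast cell markers ran between 5.89 and 6.00 on mutant jejunum arrays, between 4.91 and 6.48 on ileum arrays and between 5.35 and 5.82 on control jejunum arrays, and S100a8, S100a9, Camp and Prg2 were not tested. Of this list Kit was higher in ileum than in control jejunum (0.78, adjusted p = 0.0117) and Elane higher in mutant jejunum than in ileum (0.84, adjusted p = 0.0396). Elane was dim and read 5.49, 5.02 and 5.26 in mutant jejunum and 4.46, 4.35 and 4.45 in ileum. All its ileum arrays lay under the filter level. In the same comparison Mpo (-0.37), Ngp (-0.15), Epx (-0.22) and Kit (-0.44) differed the other way. Cpa3, Fcer1a, Mcpt1, Mcpt2 and Siglecf differed the same way as Elane, and none of these genes was called there. Stromal and vessel markers ran between 7.71 and 8.28 on mutant jejunum arrays, between 7.76 and 7.86 on ileum arrays and between 7.70 and 8.00 on control jejunum arrays, with Lum and Acta2 higher and Kdr and Pdgfrb lower in ileum than in control jejunum and Acta2 lower in mutant jejunum than in ileum. Markers of follicle-associated epithelium ran between 6.93 and 7.11 on mutant jejunum arrays, between 7.06 and 7.37 on ileum arrays and between 6.56 and 6.79 on control jejunum arrays. Of these, Marcksl1 was higher than in control jejunum both in the mutant (1.45, adjusted p = 0.00343) and in ileum (2.71, adjusted p = 1.57e-05) and lower in mutant jejunum than in ileum (-1.26, adjusted p = 0.0133), and Tnfrsf11a was higher in ileum than in control jejunum. Of 7 tested, 6 were not called in mutant against control jejunum and 5 were not called in ileum against control jejunum. Gp2, Clu and Tnfaip2 were called in no comparison. The part of these cell types in the differences of the chemokines was not tested.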

How the data were processed

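RNA was measured in 3 groups of 3 mice, and groups were taken from the sample titles. The deposited values are linear intensities of each probe set, made with GCOS, the Affymetrix expression software, per the submitters' processing notes; no source used here gives its settings or scaling. From them, 64 array controls of 45101 probe sets were removed, log2(intensity + 16) was taken and arrays were quantile normalized, which hides any shift common to all transcripts. Adding 16 understates differences of dim probe sets. Testing required 3 of 9 arrays above the 40th percentile of the pooled values. Differences were fitted in limma 3.58.1 under R 4.3.3 over all 9 arrays (lmFit, eBayes with an intensity trend, two-sided) with Benjamini-Hochberg adjustment over 29307 probe sets, and calls have adjusted p under 0.05. The fit was tested on simulated data. The number of arrays limits the precision.

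Genes come from the annotation given for the array, and 70 of 70 Entrez identifiers matched RefSeq symbols. Probe sets ending in _s_at, _x_at or _a_at can read several transcripts. Values on every array are given for members called in any comparison and for the brightest tested probe set of known ligand and receptor pairs; Ccl11 and Ccr1 were added after their values were seen. Members and lists were chosen with earlier results of these data known. Replicate numbers do not pair mice.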

Additional observations from a re-analysis of the deposited data

How the results depend on the processing

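In mutant against control jejunum 2 probe sets were called, and 1 to 3 when each array was left out in turn, 1 without control jejunum 3. In ileum against control jejunum 12 were called and 10 to 15 with an array left out; in mutant jejunum against ileum 7 and 3 to 6. Without scaling between arrays, the brightness of the segments enters the values and the median difference over all probe sets was -0.40 in ileum against control jejunum and 0.41 in mutant jejunum against ileum, instead of 0.01 and -0.01. The calls were then 24 (2 higher and 22 lower) and 18 (18 higher and 0 lower), and the higher share of all calls became 5.82% and 98.3%, against 51.5% and 52.2% with quantile normalization. Ileum calls of Ccl28, Ccl8 (0.56, adjusted p = 0.064), 1 of 2 Ccl6 probe sets (0.19, adjusted p = 0.44) and 1 of 2 Ccl9 probe sets (0.49, adjusted p = 0.0516) were lost, and those of Ccl6 (-0.02 and -0.43, adjusted p = 0.945 and 0.0757) and Cxcl17 (adjusted p = 0.0914) in mutant jejunum against ileum. Of the gained calls, 7 were receptor probe sets lower in ileum (Ccr10, Ccr9, Cxcr3, Cxcr4 and Cxcr6); brightness and segment cannot be told apart. With arrays centred on their medians the higher share was 62.0%, 36.7% and 79.1% in the 3 comparisons, against 48.9%, 51.5% and 52.2%, and ileum against control jejunum had 5 members higher and 8 lower. In mutant jejunum against ileum 4 were called with no filter and 4 in a fit of the 2 groups alone; the cause was not tested. Samples of the same number did not deviate together (correlations -0.07 to 0.17, 2 of 9 pairs over 0.1); a replicate block left 2 and 12 calls in the first 2 comparisons and 5 in mutant jejunum against ileum, without Ccl5 (adjusted p = 0.0633) and Cxcl17 (0.0741). Of 1785 values of named probe sets under alternatives, 1683 kept their side of the threshold, 38 passed it and 64 lost it; no called value reversed, and 56 of 1330 values not called in either setting changed sign. Dim probe sets limit what can be seen of 14 genes.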
